A study of Mus musculus with 12 samples.

Results

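The genes of 9 subunits of the BAF chromatin remodelling complex were examined for regions bound by the transcription factor SOX2 in mouse embryonic stem cells. They are a list of 9 among 21887 protein-coding genes, named for membership of the complex by a rule that uses no measured value, although it was drawn up with earlier results of these data known: Smarca4, Smarcc1, Smarcb1, Smarcd1, Smarce1, Arid1a, Arid1b, Dpf2 and Brd9. A region was counted for a gene when its midpoint lay within 50 kb of the gene span, and Arid1b was also searched out to 250 kb. The rule names Arid1b alone for this wider search. Since earlier results were known, a mitotic region found there is not an independent result. All members were also counted at 250 kb.

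BAF complexes, the mammalian SWI/SNF remodellers, use the energy of ATP to slide or evict nucleosomes and so open DNA to transcription factors. Smarca4 encodes the ATPase BRG1, and the subunits encoded by Smarcc1, Smarcb1, Smarcd1 and Smarce1 build the body of the complex around it. Arid1a, Arid1b and Dpf2 encode subunits of the canonical form of the complex, and Brd9 encodes a bromodomain subunit of the non-canonical form. The form found in embryonic stem cells, esBAF, contains BRG1 and the Smarcc1 product BAF155, is needed for self-renewal, and shares many of its genomic sites with SOX2 and OCT4.

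The study compared mitotic with asynchronous cells of the E14 line by ChIP-seq, in which DNA bound by an immunoprecipitated protein is sequenced, with 3 SOX2 ChIP and 3 input libraries in each condition. The mitotic cells had been held overnight in nocodazole, a drug that blocks spindle microtubules, then fixed and sorted for histone H3 phosphorylated at serine 10, a mark of condensed chromosomes. The asynchronous cells grew without a stated arrest, so mitosis and the drug cannot be told apart. Both grew in 10% serum with leukemia inhibitory factor, CHIR99021 at 3 μM and PD184352 at 0.8 μM, inhibitors of GSK3 and MEK. A single cell line was used. Regions had been called once per condition, on the 3 replicates together. No value below therefore has a replicate error, and no test between conditions or gene lists was made.

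The mitotic list held 84 distinct regions and the asynchronous list 10351. The q-value tag, read as 0.05 for the mitotic and 0.01 for the asynchronous list, was the looser one for mitotic cells, and the sequencing depth is unknown. All of 6 embryonic stem cell marker genes fixed for this check had an asynchronous region within 50 kb, and so had all 4 fibroblast marker genes. Binding near a gene is not its expression, and the cell type could not be checked from the regions. Coordinates are on mm10.

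The 9 BAF genes had 0 mitotic regions within 50 kb, and 17 asynchronous regions lay within 50 kb of 5 of them. At 0 of 9, a share as high as 33.3% is allowed (3 counts of the total), and 0.836% of all protein-coding genes had a mitotic region that near. The 5 genes with an asynchronous region were Smarcc1 with 5 regions, Smarcb1 and Arid1b with 4 each, Arid1a with 3 and Smarcd1 with 1. Smarca4, Smarce1, Dpf2 and Brd9 had none. The share of members with an asynchronous region was thus 55.6%, against 45.5% of all protein-coding genes. At 50 kb the members' share is close to that background, and other settings are given below. The median was 1 region per member and 0 per protein-coding gene.

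**Figure D1:**
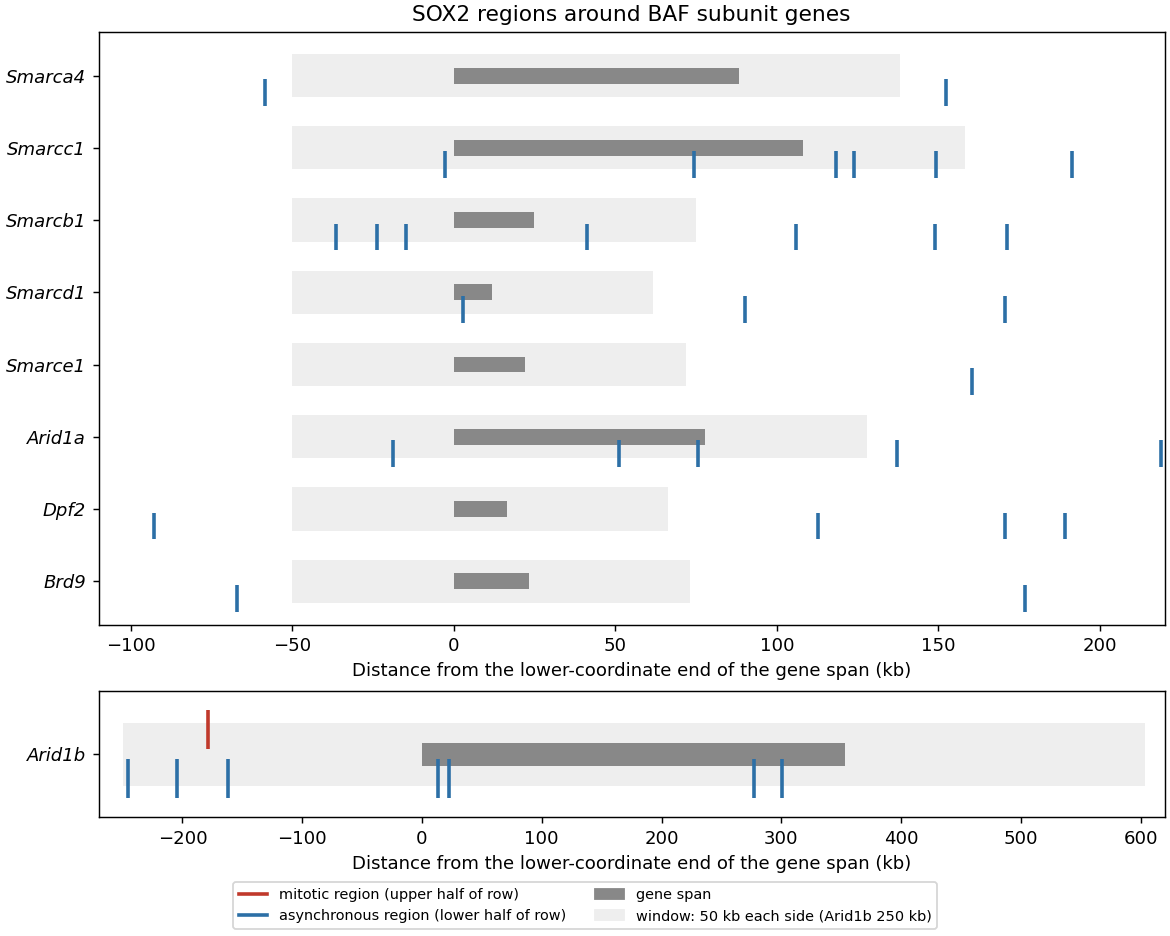
Map of SOX2 regions around the 9 BAF subunit genes; the horizontal axis is the distance in kb from the end of the gene span with the lower coordinate, the dark bar is the span, the pale bar the search window, and ticks are midpoints of mitotic (upper, red) and asynchronous (lower, blue) regions within the drawn range. Arid1b, the only member drawn with a 250 kb window, has a mitotic region in it. No other member had a mitotic region within 250 kb. The 50 kb windows of Smarca4, Smarce1, Dpf2 and Brd9 are empty.

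The ATPase gene Smarca4 (chr9:21616106-21704230, a span of 88.1 kb) had no mitotic and no asynchronous region in its window. The nearest asynchronous region, chr9:21557588-21557770, lay 58.4 kb outside the span, inside Carm1, the gene of an arginine methyltransferase that acts on histones. It was 183 bp wide, the smallest width in the list. On the other side the next region was 64.4 kb away. Smarca4 was the member with the asynchronous region closest beyond the 50 kb limit. Peak numbers in the deposited list ascend along each chromosome without exception, and 2 numbers between these flanking regions are not in the list used here. Peaks with those numbers were not analysed here, so the count of 0 for Smarca4 refers to the listed peaks.

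Smarcc1, which encodes the scaffold subunit BAF155, had the most asynchronous regions of the members, with 5, and no mitotic one. Its span (chr9:110132024-110240178, 108 kb) held 1 of them, at chr9:110206003-110206398, 74.2 kb downstream of the annotated start and 396 bp wide. A second, chr9:110129239-110129569, lay 2.62 kb upstream of the start and was 331 bp wide. For these 2 regions Smarcc1 was the nearest protein-coding gene. They stand to the 2 sides of the start, one near it and the other deep in the gene.

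The other 3 regions of Smarcc1 lay beyond the end of the gene. The regions at chr9:110250234-110250580 and chr9:110255668-110255856 were 10.2 and 15.6 kb from the span and 5.36 kb from each other. Both lay inside Cspg5, which encodes a chondroitin sulfate proteoglycan of the nervous system, so that a count by nearest gene gives them to Cspg5. The last, chr9:110281179-110281362, was 41.1 kb from the span and overlapped the long non-coding gene Gm39429 and the microRNA gene Mir6236. Cspg5 was the nearest protein-coding gene to this region too, at 18.7 kb. A count by nearest gene thus leaves Smarcc1 with 2 of its 5 regions. The width of the last region, 184 bp, put it at percentile 4.77 of asynchronous widths. Among all 17 it was the region farthest from its BAF gene. No number is missing between the regions that flank the Smarcc1 window. The nearest mitotic region on the chromosome was 40137 kb away.

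At least 5 asynchronous regions within 50 kb were found for 1.33% of all protein-coding genes, at least 4 for 3.08% and at least 3 for 7.35%. Long spans and crowded neighbourhoods enter these counts. Per 100 kb of window, Smarcc1 had 2.40 regions, Smarcb1 3.20, Arid1a 1.69, Smarcd1 0.895 and Arid1b 0.882. These 5 are the members with a region. The windows of all 9 members together had 1.05 per 100 kb, against 0.520 for those of all protein-coding genes. The value was 0.878 for 20 other BAF and PBAF genes and 0.644 for 18 other remodelling ATPase genes. Another protein-coding gene was nearer than the member to 8 of the 17 regions. A density at least as high as that of Smarcd1 was found for 25.1% of protein-coding genes, and 26.1% for Arid1b. Smarcb1 thus ranked above Smarcc1 by density, and Arid1b, with as many regions as Smarcb1, ranked last of the 5.

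**Figure D2:**
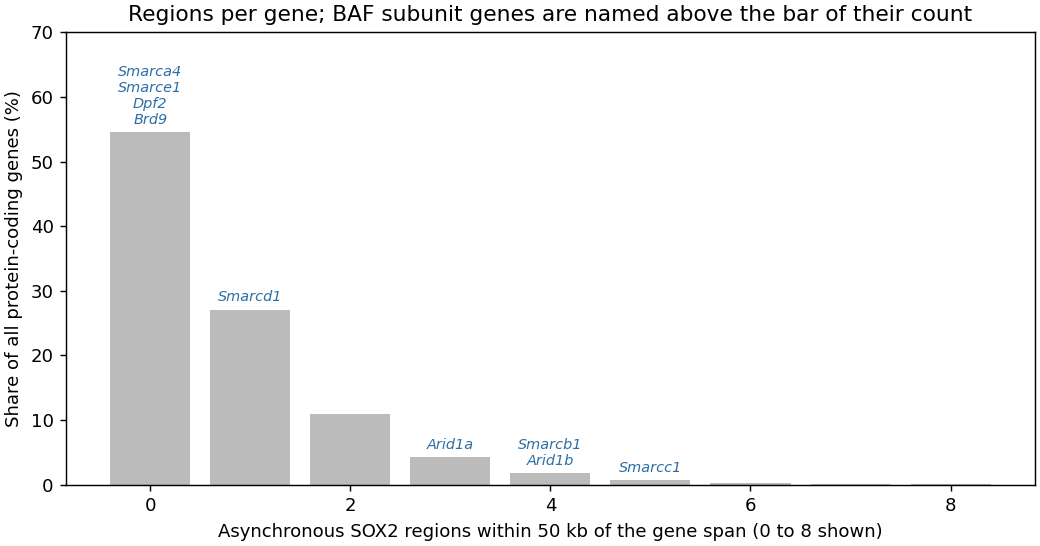
Number of asynchronous SOX2 regions within 50 kb of the gene span (horizontal axis) against the share of all protein-coding genes with that number in percent (vertical axis, counts of 0 to 8 shown); BAF subunit genes are named above the bar of their own count. The 4 members without a region stand above the highest bar, and Smarcc1, with 5, stands among the 1.33% of genes with at least that many.

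Smarcb1, which encodes the core subunit SNF5, had 4 asynchronous regions within 50 kb but none inside its span (chr10:75896769-75921614, 24.8 kb) and none within 10 kb. The closest, at chr10:75881839-75882154 and 316 bp wide, was 14.8 kb from the span, beyond the end of the gene. Next to it stood chr10:75872903-75873221, at 23.7 kb and 319 bp wide, and chr10:75860038-75860299, at 36.6 kb and 262 bp wide. These 3 formed a row with spacings of 12.9 and 8.93 kb. The region upstream of the Smarcb1 start, chr10:75937899-75938103, was 16.4 kb away and 205 bp wide. Between the regions that flank the Smarcb1 window 4 peak numbers are not listed, all of them between its outermost region at 36.6 kb and the next listed one, 248 kb from the span, so its count of 4 refers to the listed peaks.

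Another protein-coding gene was nearer to each of the 4. The upstream region lay inside Gm867 and 0.251 kb from Chchd10, which encodes a mitochondrial protein. Derl3, whose product takes part in the degradation of misfolded proteins, was nearest to the closest region, at 11.4 kb, and Mif was nearest to the other 2. Smarcb1 had 7 other protein-coding genes within 50 kb of its span, the most of the members. Counted by nearest gene, Smarcb1 kept 0 regions.

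The region at 36.6 kb reached over the promoter of Mif, the gene of macrophage migration inhibitory factor, a cytokine. It was the only one of the 17 regions to overlap a promoter window of the RefSeq table for GRCm38.p6 (mm10). Such windows run from 250 bases before an annotated start to 50 after it. In the whole asynchronous list 4.29% of regions overlapped one. The window is shown because it is the one place where letters under a region near a BAF gene could be read. It is chr10:75860228-75860527 on the minus strand, and capitals mark the 72 bases that the region covers, which include the start at position 251:
Mif promoter: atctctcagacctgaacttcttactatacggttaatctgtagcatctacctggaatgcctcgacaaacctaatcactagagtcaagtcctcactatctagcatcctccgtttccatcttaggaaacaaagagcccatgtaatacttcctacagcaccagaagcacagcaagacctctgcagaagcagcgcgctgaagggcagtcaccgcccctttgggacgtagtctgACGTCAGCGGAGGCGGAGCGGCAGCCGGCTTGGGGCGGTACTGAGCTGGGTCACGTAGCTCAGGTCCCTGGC
The window was searched on both strands for ACAAAG and ACAAT, cores of SOX sites, and for ATGCAAAT, the octamer of POU factors such as OCT4. ACAAAG and ACAAT begin alike but cannot start at the same base. One ACAAAG began at position 125, outside the covered bases, and the 72 capitals held none of the 3.

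Smarcd1, whose subunit links the complex to transcription factors, had 1 asynchronous region and no mitotic one. The region, chr15:99704996-99705307 and 312 bp wide, lay inside the span (chr15:99702287-99713995, 11.7 kb), 2.86 kb downstream of the start. Smarcd1 has the shortest span of the 9 genes, and 45.5% of all protein-coding genes had at least as many regions. Between the flanking regions of its window 1 peak number is not listed. The nearest mitotic region was 1511 kb away, the second shortest such distance among the members after that of Arid1b.

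The promoter table held 10 windows for 8 of the 9 members, and that of Smarcd1 was the only one with any of the 3 motifs. It is printed for that reason, with the ACAAAG match, which is on the opposite strand, in capitals as CTTTGT (chr15:99702037-99702336, plus strand):
Smarcd1 promoter: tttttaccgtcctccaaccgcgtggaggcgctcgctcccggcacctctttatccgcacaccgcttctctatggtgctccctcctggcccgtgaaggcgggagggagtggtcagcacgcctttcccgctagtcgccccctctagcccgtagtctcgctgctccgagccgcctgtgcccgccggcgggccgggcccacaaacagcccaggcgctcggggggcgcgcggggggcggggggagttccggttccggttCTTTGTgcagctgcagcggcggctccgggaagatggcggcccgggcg
The match begins at position 254, a few bases past the start at 251, and 2.66 kb separate the window from the region inside the gene. Over all 32851 promoter windows, 18.7% held ACAAAG, 31.0% held ACAAT and 1.74% held ATGCAAAT. A match is a string of letters, not a site, and its absence says nothing of SOX2.

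Smarce1, which encodes BAF57, a subunit with an HMG box, had the widest gap. Its span (chr11:99209047-99231017) lies beside keratin genes, with Krt222 and Krt24 as the 2 protein-coding neighbours within 50 kb. No region of either list lay within 100 kb. The nearest asynchronous region, chr11:99369392-99369599, was 138 kb away inside Krt28, and the nearest mitotic one 4856 kb away. Between the asynchronous regions on the 2 sides 2 peak numbers are not listed.

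Arid1a, which encodes the DNA-binding subunit that marks canonical BAF, had 3 asynchronous regions within 50 kb and no mitotic one. Of these, 2 lay inside its span (chr4:133679008-133756769, 77.8 kb). At chr4:133729843-133730169 a region of 327 bp stood 26.8 kb downstream of the outermost start. At chr4:133754321-133754530 a region of 210 bp stood 2.34 kb downstream of that start and 440.5 bp upstream of a second annotated start of the gene. The remaining one, chr4:133660195-133660398, 204 bp wide, was 18.7 kb beyond the end of Arid1a, inside Pigv, which encodes an enzyme of GPI anchor synthesis.

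The window of the second start of Arid1a was the promoter window of a member closest to a region, with 85 bases between them. It is shown for its position, and none of the 3 motifs was found in it (chr4:133753936-133754235, minus strand, capitals from the annotated start on):
Arid1a inner promoter: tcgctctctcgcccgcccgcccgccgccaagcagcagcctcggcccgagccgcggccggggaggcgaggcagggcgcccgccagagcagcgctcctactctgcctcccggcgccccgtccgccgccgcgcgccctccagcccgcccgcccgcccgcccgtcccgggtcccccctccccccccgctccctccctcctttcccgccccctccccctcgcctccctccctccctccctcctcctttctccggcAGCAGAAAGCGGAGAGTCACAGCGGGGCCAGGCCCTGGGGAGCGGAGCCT
The region itself starts upstream of these letters and does not reach them. Beyond the window of Arid1a the next region was 59.3 kb away, and 1 peak number between the flanking regions is not listed. The nearest mitotic region was 3625 kb away, and 20.3 kb from Cela3a, a pancreatic elastase gene.

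Arid1b, the paralog of Arid1a that takes its place in a part of the complexes, was the only member with a mitotic region within 250 kb. That region, chr17:4815564-4815744, had a width of 181 bp (percentile 94.0 of mitotic widths), with 5 of the 84 mitotic regions wider. Its midpoint lay 179 kb outside the span and upstream of the annotated start. No protein-coding gene was closer to it than Arid1b, and no annotated gene of any kind overlapped it. The nearest promoter window was that of another annotated gene, Gm34371, with 20804 bases between them. Of all protein-coding genes, 2.96% had a mitotic region within 250 kb.

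In the asynchronous list Arid1b had 4 regions, all inside its span (chr17:4994297-5347656, 353 kb), and 3 more within 250 kb. The inside regions fell into 2 pairs. At the start of the gene stood chr17:5007305-5007663 (359 bp) and chr17:5016577-5016797 (221 bp), 12.4 and 21.6 kb downstream of the annotated start and 9.20 kb apart. Towards the end stood chr17:5270884-5271320 (437 bp, the widest of the 17) and chr17:5294776-5294965 (190 bp), 276 and 299.8 kb downstream of the start and 23.8 kb apart. Between the pairs 254 kb of the gene had no listed region. Only 1.96% of protein-coding genes have a longer span, and inside it Arid1b had 1.13 regions per 100 kb, against 0.481 over all protein-coding spans together.

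The 3 outer asynchronous regions of Arid1b stood on the same upstream side as the mitotic one. They were chr17:4748461-4748713 (253 bp), chr17:4789489-4789710 (222 bp) and chr17:4832513-4832701 (189 bp), at 246, 205 and 162 kb from the span. The mitotic region lay between the last 2, with its midpoint 26.1 kb from the one and 17.0 kb from the other. It overlapped neither. It was thus nearer to the gene than 2 of the outer asynchronous regions and farther than the third. All 4 lay more than 50 kb from any protein-coding gene. The promoter window of Gm34371 was the nearest to each of them, with 4749 bases between it and the region at 205 kb. Between the regions flanking the 250 kb window 4 peak numbers of the asynchronous list are absent, of which 2, 6143 and 6144, fall between the region at 162 kb and the first region inside the gene.

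Dpf2, a double PHD finger subunit, and Brd9 had no region of either list within 50 kb. For Dpf2 (chr19:5896516-5912871) the asynchronous regions on the 2 sides were 92.8 and 96.4 kb away, and no mitotic region lay on its chromosome. For Brd9 (chr13:73937801-73960895) the flanking asynchronous regions were 67.2 and 154 kb away, the nearer one 22.9 kb from Nkd2, a Wnt inhibitor gene, and the nearest mitotic region was 7295 kb away. In both cases the flanking peak numbers follow each other, so no numbered asynchronous peak is missing from the window. The asynchronous zeros of Dpf2 and Brd9 thus do not depend on unlisted numbers, whereas those of Smarca4 and Smarce1 could.

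**Figure D3:**
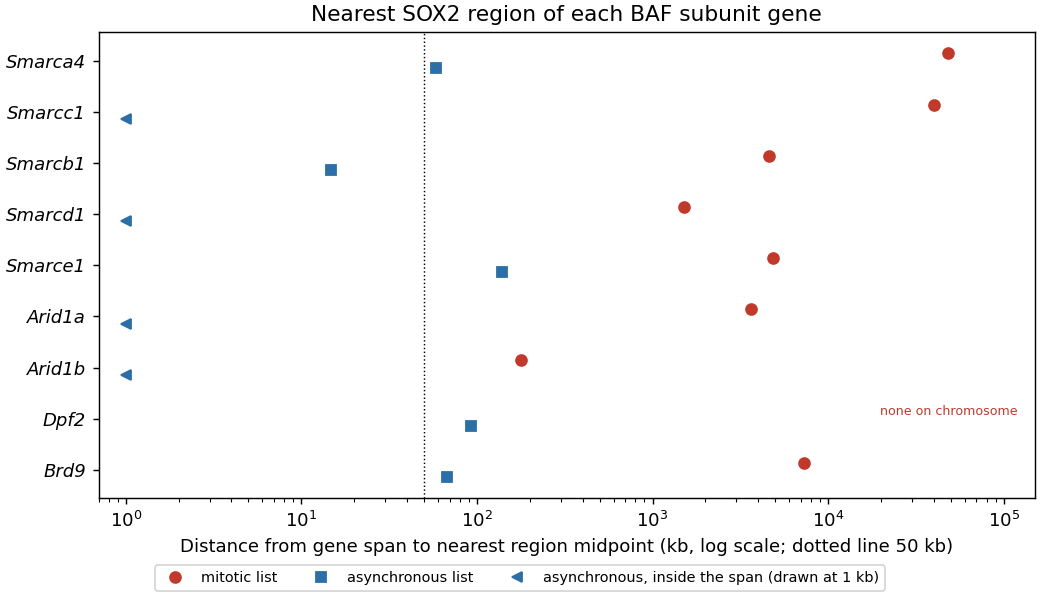
Distance from each BAF subunit gene to the nearest region midpoint, in kb on a log axis, for the mitotic list (red circles) and the asynchronous list (blue squares, or triangles at 1 kb where a region lies inside the span); the dotted line is the 50 kb limit. Mitotic distances run from 179 kb at Arid1b to 48291 kb at Smarca4, with none on the chromosome of Dpf2, and asynchronous ones from inside the gene to 138 kb at Smarce1.

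The median distance to the nearest asynchronous region was 14.8 kb for the 9 members and 62.0 kb for all protein-coding genes. To the nearest mitotic region it was 9350 kb for protein-coding genes with such a region on their chromosome. With a window of 10 kb, 4 of 9 members had an asynchronous region (44.4%, against 23.8% of protein-coding genes), and the same 4, Smarcc1, Smarcd1, Arid1a and Arid1b, had one inside the span, as had 14.7% of protein-coding genes. With 100 kb the figures were 8 of 9 (88.9% against 62.4%) and with 250 kb 9 of 9 (100.0% against 84.0%). The members have a median span of 24.8 kb, against 17.2 kb for all protein-coding genes, and a longer span gives a wider window. These values were not particular to the members. For 20 other BAF and PBAF genes, described below, the median distance was 10.7 kb, with shares of 45% at 10 kb and 90% at 100 kb. For 18 other remodelling ATPase genes it was 42.4 kb, with 38.9% and 77.8%. None of these shares was tested.

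The 17 regions near the BAF genes resembled the list in width. They ran from 184 to 437 bp with a median of 312 bp, against a median of 289 bp for the asynchronous list, and 9 of 17 were wider than that median. Every one had a single listed summit. Those of Smarcc1 ran from 184 to 396 bp and those of Arid1b from 190 to 437 bp, so that single genes covered most of the range. By place, 10 of the 17 (58.8%) had their midpoint inside a protein-coding gene and away from its ends, 3 (17.6%) lay within 1 kb of a gene end and 4 (23.5%) were outside genes, against 44.3%, 7.46% and, counting up to 50 kb only, 27.1% of the asynchronous list. The 3 at a gene end were at ends of other genes, Mif, Gm867 or Chchd10, and Pigv. The window rule itself leaves out regions far from genes, which made up 21.1% of the list.

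**Figure D4:**
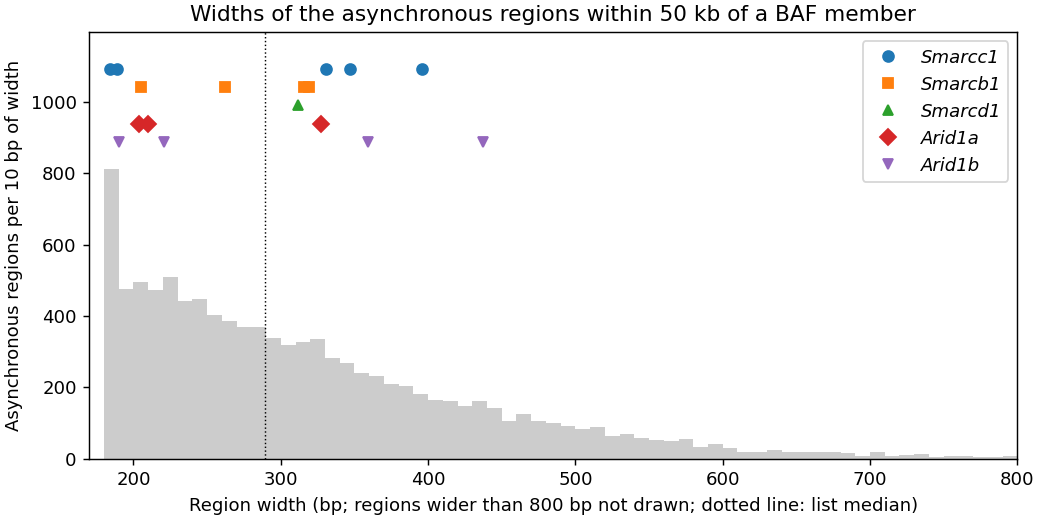
Widths in bp (horizontal axis) of the 17 asynchronous regions within 50 kb of a BAF subunit gene, as symbols by gene at arbitrary height, above the histogram of all asynchronous regions in bins of 10 bp (vertical axis, number of regions; widths over 800 bp not drawn). The symbols run from 184 to 437 bp on both sides of the list median of 289 bp, drawn as a dotted line.

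A list of 20 further BAF and PBAF genes was read in the same way. None had a mitotic region within 50 kb, which allows a share as high as 15.0% (3 counts of the total). Within 250 kb 1 of the 20 had one, Actl6b, at 152 kb. The shares of all protein-coding genes were 0.836% and 2.96%. Actl6b encodes an actin-related subunit of the neuronal complex. An asynchronous region lay within 50 kb of 16 of the 20 (80.0%, median 1 region per gene). Like the share of the 9 members, this is to be read beside the 45.5% of all protein-coding genes. The 20 genes have a median span of 31.6 kb, against 17.2 kb for all protein-coding genes, so their windows are wider. Actb, whose actin product is also a BAF subunit, had 4, Arid2, of the PBAF form, had 3, and Smarca2, Actl6a, Dpf3, Phf10, Ss18, Bicra and Bicral had 2 each.

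The counts of paralogs within the complex are to be read beside those of all protein-coding genes. Of these, 54.5% had 0 regions within 50 kb, 27.1% had 1 and 11.0% had 2. Smarca4 had 0 regions within 50 kb, while Smarca2, the gene of the alternative ATPase BRM, had 2, both inside its span of 173 kb. Smarcc1 had 5 and Smarcc2, the gene of BAF170, which is scarce in embryonic stem cells, had 0, with its nearest region at 68.5 kb. Among the genes of the D subunits, Smarcd1 had 1, Smarcd3 1 and Smarcd2 0. Dpf2 had 0, against 1 for Dpf1 and 2 for Dpf3, whose products are found in neuronal complexes. Dpf3 has a span of 274 kb and Dpf2 one of 16.4 kb. Brd9 had 0 and its PBAF relative Brd7 also had 0, with the nearest asynchronous region 89.0 kb away. Arid1a, Arid1b and Arid2 had 3, 4 and 3. These are single counts from pooled replicates, and the differences between paralogs were not tested.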

How the data were processed

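SOX2 ChIP-seq of mitotic and asynchronous E14 cells was used as 2 deposited region lists. Per the submitters' processing notes, Bowtie2 2.2.1, MACS2 (version not given in the sources used here) and mm10 were used. Per the deposited names, ChIP was called against input on 3 pooled replicates and blacklisted regions were removed. The deposited values are positions in bp, with no score, fold, p or count column, and depth is unknown. Of the peak numbers, 47 of 131 (mitotic) and 5239 of 15590 (asynchronous) are not in the lists used here.

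Starts were converted to count from 1, and entries with the same coordinates merged (84 of 84 mitotic and 10351 of 10532 asynchronous remained). Genes were RefSeq spans of GRCm38.p6 on 21 chromosomes, without exons; strand and starts came from the promoter table, which holds no window for Smarce1. Genome sequence was not used here, so the planned search of region sequence was replaced by the promoters. Counting was checked on simulated regions. Python 3.11.15, numpy 2.4.6, pandas 2.3.3 and matplotlib 3.10.9 were used.

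The members and lists were chosen with earlier results of these data known. Named genes were all members and the nearest genes of the regions described. Of each other list they were up to 6 genes with the most regions (ties included) and any with a mitotic region within 250 kb. Other paralogs were named after their values were seen. Smarca5, Smarca1, Chd4 and Hells, without a region within 50 kb, were named outside this rule. The limit given beside a list's count of 0 is 3 counts of its total, which covers counting error only. No test between conditions was run, since no value has replicates. No test of a gene list against all genes was run, because the lists were chosen with earlier results known.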

Additional observations from a re-analysis of the deposited data

How the results depend on the processing

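Of 97 counts recomputed over 13 results, 66 stayed equal or within 1.5 times of the count reported. Many of these were counts of 0 that stayed 0, at members without a region and in the mitotic list. Leaving entries unmerged could not change the member counts, since each of the 17 regions has a single listed summit. The 66 therefore say less about counts above 0. Members with an asynchronous region were 8 at 100 kb and 9 at 250 kb, and 4 or 5 under the other settings. By nearest gene they were 4 of 9, against 23.5% of all protein-coding genes. Among regions wider than the list median they were 5 of 9, against 26.7%. By distance to an annotated start they were 5, against 37.2% of genes with a start. Members with a mitotic region were 1 at 250 kb and 0 otherwise. Distinct asynchronous regions numbered 26 at 100 kb and 49 at 250 kb, and 9 each at 10 kb, by nearest gene, among regions wider than the list median and by distance to an annotated start (Smarce1 has none in the table). The Arid1b distance was 178.553 kb to the region's edge and 179.42 kb to the start. By distance to a start, Smarcc1 had 1 region and Arid1b 2. No paired analysis was possible because each condition has 1 list of pooled replicates, and leaving out a replicate was not run for the same reason. The asynchronous zeros of Smarca4 and Smarce1 could depend on peak numbers not listed. So could mitotic zeros within 50 kb other than those of Arid1a, Arid1b and Brd9. For Smarcc1 this holds only for numbers above 131, the highest in the mitotic list. Depth is unknown throughout.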

Other observations

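Genes of 18 other chromatin remodelling ATPases, read in the same way, had no mitotic region within 250 kb. Of all protein-coding genes, 2.96% had one that near. With 3 counts of the total, a share as high as 16.7% is allowed. Of the 18, 9 (50%) had an asynchronous region within 50 kb, against 45.5% of all protein-coding genes. Their median span was 70.6 kb, against 17.2 kb for all protein-coding genes, and a longer span gives a wider window. Chd2 had 5 regions, as many as Smarcc1, with 2 of them inside its span. Smarcad1, of a remodeller that acts on heterochromatin, had 4, Chd5 and Chd9 had 3 each, and Chd7 and Ino80 had 2 each. The 9 genes without an asynchronous region within 50 kb included Smarca5 and Smarca1, the ATPases of the ISWI complexes. Chd4, the ATPase of NuRD, was another, with its nearest asynchronous region 61.0 kb away. The nearest region to Hells, a remodeller needed for DNA methylation, was 394 kb away.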
